A study of Homo sapiens with 6 samples.

Results

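Long non-coding RNA genes named LINC followed by a number, together with microRNA host genes named MIR...HG, made up 117 of the 6018 genes in the authors' deposited table. They were chosen by symbol alone. The symbol in the table gave 105 of them, and the gene name of the Ensembl identifier gave the other 12, among 1399 genes without a symbol in the table. Of the 117, 109 were LINC genes and 8 were MIR host genes. In GENCODE release 29 (GRCh38), 110 of them are annotated as long non-coding genes and 1948 genes carry such a symbol.

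RNA sequencing was used to compare C4-2B cells, a cultured prostate cancer line of the LNCaP lineage that can grow with little androgen, with a subline of them. Parental cells (labelled C42B, 3 libraries) are labelled passage 0, although the design text has them carried in parallel in 1% DMSO. The subline C42-B-Abi (3 libraries, passage 15 to 18) was selected over at least 6 months in 1 to 20 µM abiraterone, an inhibitor of the androgen synthesis enzyme CYP17A1, and was then kept in 5 µM drug. Both lines grew in RPMI medium with 10% fetal bovine serum. An exposure to 10 µM abiraterone before RNA extraction is mentioned without saying whether both lines received it. Selection and labelled passage number cannot be told apart, and the labels name 1 subline, with no word on separate selections or cultures.

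The authors' comparison is of a condition C, called control in the header, with a condition V, called vehicle. The header ties neither letter to a cell line, and the parental cells serve as control and received the vehicle DMSO, so both words could mean them, while the titles of the 3 parental libraries carry a V. Directions are therefore given by these letters. Each gene has a mean of normalised counts over all samples, a log2 fold change of C over V with its standard error (SE), and an adjusted p from DESeq2. The table has no value per library, so depth per library and overlap between libraries are unknown. A level for each condition was worked out from the mean and the fold change, on the assumption of equal group sizes, and has no error of its own. A gene was called when its adjusted p was under 0.05.

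Every gene in the table has a p under 0.05 and a log2 fold change of 1.20 or more in size, and a gene outside it is not known to be unchanged. Of 9 luminal prostate markers, 2 were listed, KLK3 and KLK2, and both were higher in C. Of 8 leukocyte markers 4 were listed and 3 were called, all toward V, with summed derived levels of 66.2 normalised counts in V and 1.56 in C. Of 5 endothelial markers 3 were called, all toward V, with sums of 59.1 and 5.16. Of 5 fibroblast markers 2 were called, COL1A1 toward V and PDGFRB toward C, with sums of 297 and 82.5. Their part in the results below was not tested.

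Long intergenic RNAs are transcribed from their own promoters between protein-coding genes and are spliced and polyadenylated much like messenger RNAs, but hold no long conserved reading frame. Most are present at low copy number and are restricted to particular cell types. Some act in the nucleus on nearby or distant genes and others act in the cytoplasm, and for many no function is known. A microRNA host gene is transcribed as a long primary RNA from which hairpins are cut and trimmed to mature microRNAs, which pair with target messages mainly through the seed, bases 2 to 8. The level of the host RNA need not follow the level of the microRNA, which was not measured here.

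All 8 listed MIR host genes were called, 4 higher in V and 4 higher in C. Of all 6018 listed genes 89.4% were called, 43.4% toward V and 46% toward C. The share was 97.2% at a mean of 10 to 100 and 99.6% at 100 or more, and only 2 hosts had a mean under 10. The span of each host gene contains the hairpin of the microRNA it is named for. Exons were not required to hold it, and the annotated transcripts of MIR3147HG share no stretch of read length with MIR3147. Mature sequences from RefSeq (GRCh38.p14) are shown because they lie within the span of the host gene, on the host's own strand. They are limited to the microRNAs that give the hosts their names and the cluster of miR-23a, with 1 arm per hairpin and the seed in capitals. The first 6 belong to hosts higher in V.
hsa-miR-22-3p: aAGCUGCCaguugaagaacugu
hsa-miR-23a-3p: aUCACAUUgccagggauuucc
hsa-miR-27a-3p: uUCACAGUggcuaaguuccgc
hsa-miR-24-3p: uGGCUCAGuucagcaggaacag
hsa-miR-223-3p: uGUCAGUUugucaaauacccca
hsa-miR-663a: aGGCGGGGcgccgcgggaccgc
The other 4 belong to hosts higher in C.
hsa-miR-600: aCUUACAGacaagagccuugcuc
hsa-miR-3147: gGUUGGGCagugaggaggguguga
hsa-miR-924: aGAGUCUUgugaugucuugc
hsa-miR-4500: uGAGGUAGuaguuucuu
No seed occurs more than once among these 10. The seed of miR-4500 is that of the let-7 family, and 10 other mature microRNAs in the RefSeq table carry it. The seed of miR-23a-3p is shared with miR-23b-3p and miR-23c, and that of miR-27a-3p with miR-27b-3p and miR-9985. The seed of miR-663a is shared with miR-10396b-5p, miR-1908-5p and miR-6787-5p.

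MIR22HG, the host of miR-22 and a gene known to respond to many cell stresses, was the best determined host on the V side. It stood at a derived 31.9 normalised counts in C and 252 in V, with a log2 fold change of -2.98 ± 0.19 in the authors' deposited table (SE; DESeq2 adjusted p = 1.41e-51). The gene lies on chromosome 17 at 1711493 to 1717174, minus strand, and overlaps WDR81 on the opposite strand. MIR23AHG, the primary transcript of the miR-23a, miR-27a and miR-24-2 cluster, had a derived level of 16.6 in C and 183 in V and a log2 fold change of -3.46 ± 0.27 in the authors' deposited table (DESeq2 adjusted p = 4.16e-35). It is annotated on chromosome 19 at 13823880 to 13842928, minus strand, as 1 exon block that runs into ZSWIM4 on the opposite strand, and 14.0% of its 50-base windows, the read length, also occur in transcripts of other genes on either strand.

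MIR663AHG had a mean of 212 normalised counts in the authors' deposited table, with derived levels of 29.5 in C and 394 in V. Its log2 fold change of -3.74 carried an SE of 0.70 in the authors' deposited table, whereas the median SE of listed genes at a like mean (within 1.5 times) was 0.16. MIR223HG, the host of the myeloid microRNA miR-223, was at a low level, with derived levels of 0.160 in C and 6.57 in V and a log2 fold change of -5.36 ± 1.46 in the authors' deposited table. Leukocyte markers lay on the same side, at derived levels in V of 35.7 normalised counts for PTPRC, 22.0 for LYZ and 3.67 for CD14 from the authors' deposited table. The part of such cells or transcripts in the MIR223HG value was not tested.

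Hosts higher in C were MIR924HG, MIR600HG, MIR3147HG and MIR4500HG. MIR924HG stood at a derived 139 normalised counts in C and 16.8 in V (log2 fold change 3.05 ± 0.28 in the authors' deposited table). It spans chromosome 18 from 39206924 to 39800318 with no annotated protein-coding gene within 100 kb. MIR600HG, at 191 in C and 64.2 in V (1.57 ± 0.17 by the authors' deposited table), lies within STRBP on the same strand, so unspliced reads of STRBP could be counted with it; STRBP was not listed. MIR3147HG stood at 23.9 and 4.23 (2.50 ± 0.46) in the authors' deposited table, and MIR4500HG at 17.7 and 1.51 (3.55 ± 0.81). The named members, hosts included, are drawn with their errors in the plot of log2 fold changes.

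**Figure D1:**
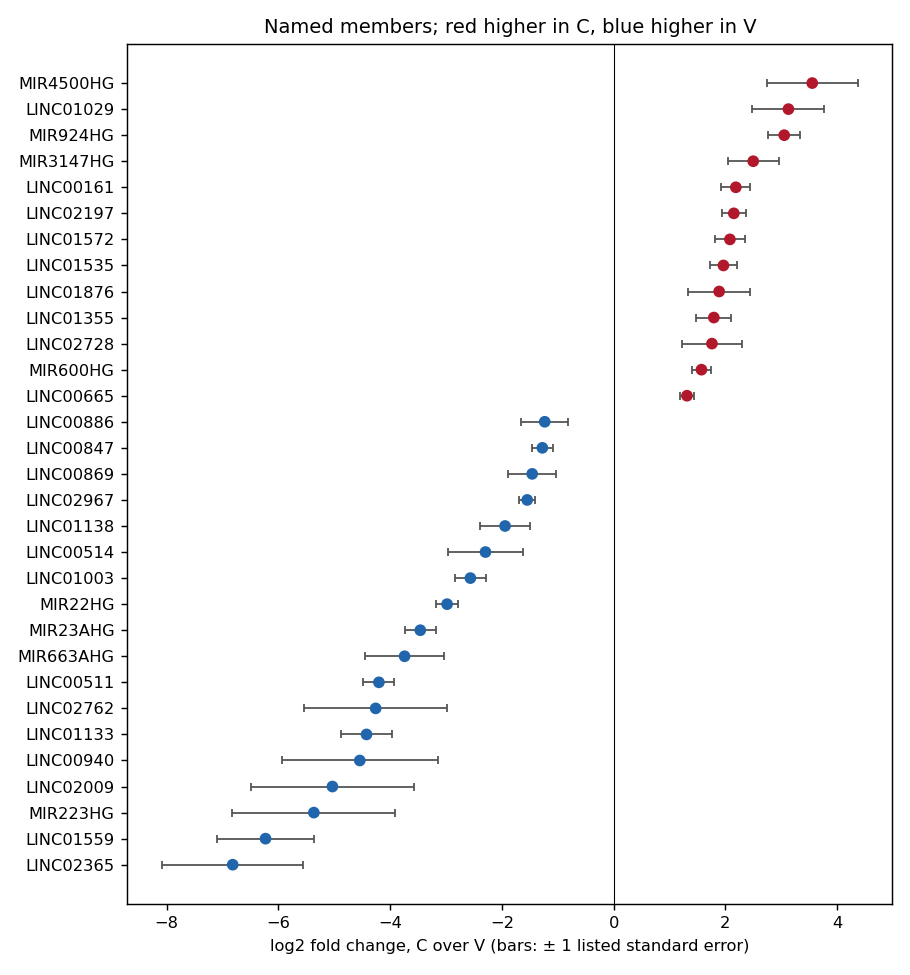
Log2 fold change of C over V (x axis) for the 31 named members (y axis), as listed by the authors, with bars of ± 1 listed SE; red points are higher in C and blue points are higher in V. The bars range from 0.13 for LINC00665 to 1.46 for MIR223HG, and the widest belong to V-side members with derived C levels under 1 normalised count.

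Over all members, calls divided almost evenly between the sides. Of the 117 listed, 89 (76.1%) were called, 43 toward C with log2 fold changes from 1.28 to 4.58 and 46 toward V with log2 fold changes from -6.82 to -1.23 in the authors' deposited table. Of all 6018 genes 89.4% were called, 46% toward C and 43.4% toward V. Of the 808 other long non-coding genes 79.2% were called, 51.6% toward C and 27.6% toward V, and of the 2953 protein-coding genes 92.7%, with 31.6% toward C and 61% toward V. The 28 members not called had adjusted p between 0.05 and 0.10, 27 of them with a mean under 10 normalised counts. Most members were low: 76 had a mean under 10, 34 a mean from 10 to 100 and 7 a mean of 100 or more. The median mean of called members was 9.01 normalised counts, against 28.1 for all called genes and 75.0 for called protein-coding genes. The lower call share went with this lower level. Below a mean of 10, 64.5% of members, 65.7% of other long non-coding genes and 73.1% of all listed genes were called; from 10 to 100 the shares were 97.1%, 96.8% and 97.2%.

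**Figure D2:**
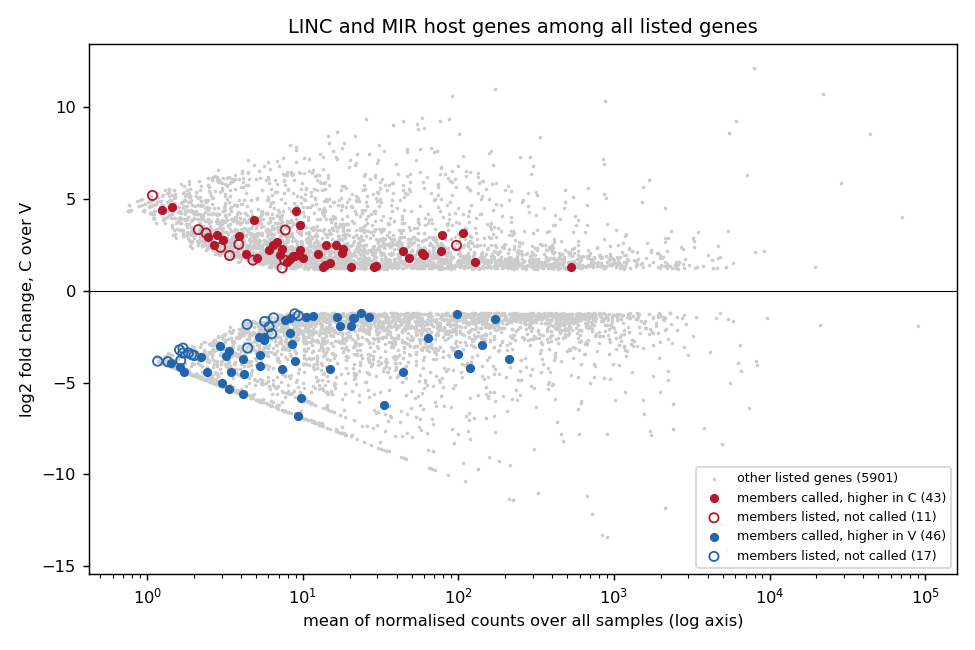
Log2 fold change of C over V (y axis) against mean normalised count of all samples together (x axis, log scale) for all 6018 listed genes; grey points are other genes, filled colours called members and open circles members that were listed but not called. Members lie mostly at the low end, 76 of 117 under a mean of 10, and the empty band around 0 is the authors' limit on the fold change.

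By the overall median, changes toward V were larger and had larger errors than those toward C, but not at every level. The median log2 fold change of called members was 2.15 toward C and -3.47 toward V, with median SE of 0.64 and 0.87. Below a mean of 10 the medians were 2.48 and -3.81, from 10 to 100 they were 1.99 and -1.51, the reverse order of size, and at 100 or more, with 3 and 4 members, they were 1.57 and -3.36. All called genes had medians of 2.30 and -2.40. Of the 46 members called toward V, 20 had a derived level under 1 normalised count in C, and of the 43 called toward C, 9 had such a level in V. For these 29 genes the fitted size of the change is poorly determined and sets no limit.

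The division differed in number from that of the other classes of gene, and no test of this difference was run. Among called members 48.3% were higher in C. For the 640 other called long non-coding genes the share was 65.2%, with 417 higher in C and 223 higher in V. Within these it was 65.8% for genes typed lincRNA, the type of most members, and 49.3% for antisense genes. For called protein-coding genes it was 34.1%. Of the 94 members that GENCODE types as lincRNA, 39 were called toward C and 34 toward V; of the 9 typed as processed transcripts, 1 and 6.

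**Figure D3:**
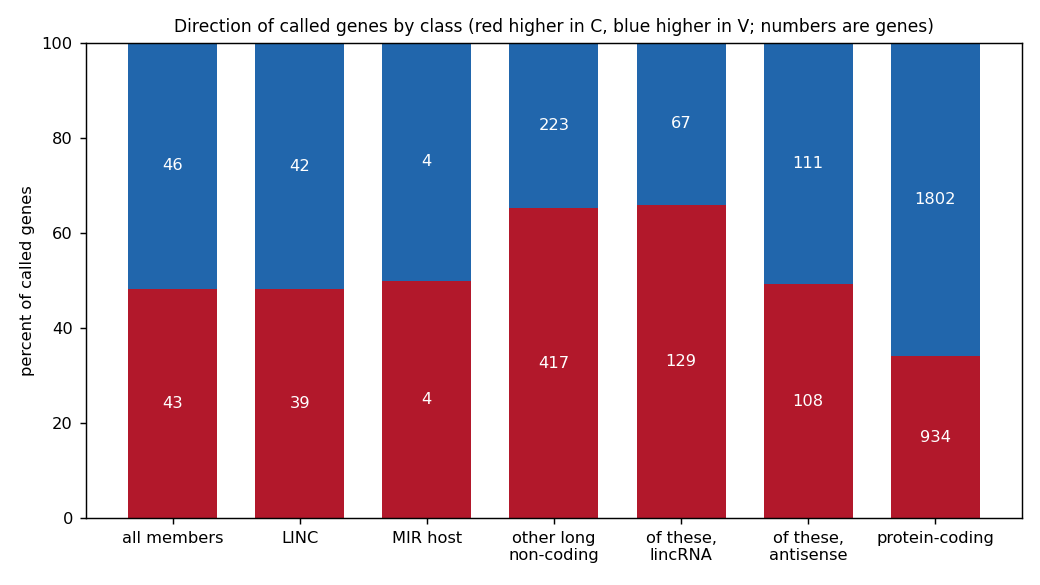
Percent of called genes higher in C (red) and higher in V (blue) in each class, with the number of genes written in the bars. Members stand at 48.3% higher in C, between other long non-coding genes at 65.2% and protein-coding genes at 34.1%.

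LINC00665, described in several tumour types, had the largest normalised count of the members, undivided by length. From the authors' deposited table its mean was 526 normalised counts and its derived levels were 750 in C and 302 in V, a log2 fold change of 1.31 ± 0.13 (DESeq2 adjusted p = 6.19e-24). It lies on chromosome 19 at 36313067 to 36331718, minus strand. LINC01535, on the same chromosome at 37251912 to 37265535, was also higher in C (1.97 ± 0.25 by the authors' deposited table, derived levels 95.4 and 24.4). Of the 50-base windows of LINC01535, 17.3% also occur in LINC00665 transcripts, so the division of reads between the pair is uncertain.

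Other called C-side LINC genes reaching 50 normalised counts were LINC01029, LINC00161, LINC02197, LINC01572 and LINC01355. LINC01029 had derived levels of 192 in C and 21.9 in V and a log2 fold change of 3.13 ± 0.64 in the authors' deposited table. That SE was 2.91 times the median of listed genes at a like mean. LINC00161 (2.19 ± 0.26), LINC02197 (2.15 ± 0.21), LINC01572 (2.08 ± 0.27) and LINC01355 (1.79 ± 0.32) had smaller errors in the authors' deposited table. LINC01355 is 1 exon block with no overlap of another annotated gene and no 50-base window found in another gene's transcripts. LINC01572 and LINC02197 shared 30.1% and 14.7% of their windows with transcripts of other genes.

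On the V side, LINC00511, described as raised in several carcinomas, had derived levels of 12.3 in C and 226 in V and a log2 fold change of -4.20 ± 0.28 in the authors' deposited table (DESeq2 adjusted p = 6.56e-50). Its annotation on chromosome 17 (72290091 to 72640472, minus strand) holds 57 exon blocks and 27605 exonic bases, the longest of all members. LINC01133, also described in several carcinomas, was at 3.92 in C and 84.1 in V (-4.42 ± 0.46 by the authors' deposited table). LINC01559 was at 0.880 in C and 66.0 in V (-6.23 ± 0.88 by the authors' deposited table), and with so low a C level its fold is imprecise. LINC01003 (-2.56 ± 0.28), LINC02967 (-1.55 ± 0.14) and LINC00847 (-1.28 ± 0.19) were the other called V-side LINC genes reaching 50 normalised counts in the authors' deposited table. Of the LINC00847 windows, 16.2% also occur in HEIH, which overlaps it.

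Counts grow with transcript length, so levels of different genes were also set side by side after division by exon length. On that scale, ordered by the higher of the levels in C and V, LINC02967 was the highest member. It had 76.5 derived normalised counts per kb in C and 223 in V. LINC00665 followed with 104 in C and 41.9 in V, then LINC01029 (91.5 and 10.5) and MIR22HG (10.7 and 84.3). LINC00511 stood at 0.445 in C and 8.18 in V per kb, with an exon length that counts every annotated isoform. No error can be given for the derived levels, so neighbours in this order cannot be separated.

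**Figure D4:**
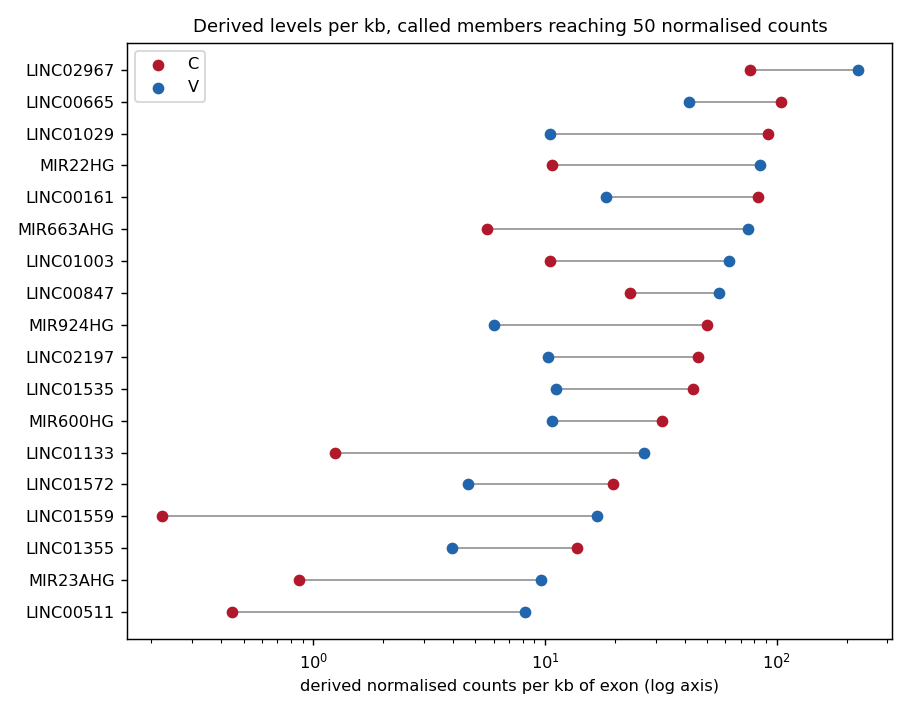
Derived normalised counts per kb of exon (x axis, log scale) in C (red) and V (blue) for the 18 called members whose higher derived level was at least 50 normalised counts; the grey line joins the pair of each gene. LINC02967 has the highest level, 223 per kb in V, and the widest gap is that of LINC01559, from 0.223 in C to 16.7 in V.

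Several members on chromosome 1 shared sequence with other genes. LINC01138 was called with a log2 fold change of -1.94 ± 0.45 in the authors' deposited table (derived levels 8.47 in C and 32.5 in V). LINC00869, LINC00623 and LINC01145 were also called toward V. The share of windows found in other genes was 19.5% for LINC01138, 49.4% for LINC00869, 64.6% for LINC00623 and 81.7% for LINC01145, and 28.8% of the LINC00623 windows occur in LINC01145 itself, so the counting could divide reads between copies. LINC00319 on chromosome 21 (called toward V), LINC01189 on chromosome 9 and LINC01001 on chromosome 11 (both not called) had still higher shares, 91.5%, 92.5% and 86.5%. Over all members, 52 had no shared window, 25 shared more than 10% and 6 more than 50%. Among the 52, 40 were called, 20 on each side.

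Other long non-coding RNAs were read from lists drawn up with earlier results of these data known. Of 18 prostate-related genes 5 were listed and 4 called, all 4 toward C, among them SCHLAP1 (2.73 ± 0.22), described in aggressive prostate cancer, and PRNCR1 (2.29 ± 0.27) in the authors' deposited table. Of 37 snoRNA host genes 4 were listed and called, all toward C, where 65.2% of the other called long non-coding genes also lay, SNHG16 (1.40 ± 0.08) and SNHG3 (1.25 ± 0.08) with the smallest errors in the authors' deposited table. All 5 called of 10 interferon and inflammation genes were on the V side, among them IRF1-AS1 (-1.84 ± 0.25) in the authors' deposited table; these 5 were the members of that list in the table, and 34.8% of the other called long non-coding genes were on that side. BISPR and NRIR, interferon-induced RNAs beside BST2 and CMPK2, stood at derived levels of 12.3 and 7.71 in V and under 1 in C. Of 16 widely expressed genes, 4 were called toward C, among them PVT1 (1.91 ± 0.10 in the authors' deposited table), and 2 toward V, MALAT1 and NEAT1.

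Protein-coding neighbours were taken from GENCODE release 29 as genes whose bodies lie within 100 kb of a member's body. Of the 116 members in the annotation, 82 had at least 1 such neighbour, 238 pairs in all, and 50 of the pairs (21.0%) had a neighbour in the table. Both genes were called in 41 pairs, which hold 26 members and 40 neighbours. In 28 pairs the directions were the same and in 13 they were opposite. Other called long non-coding genes had the same direction as called neighbours in 283 of 398 pairs (71.1%), against 68.3% for the members. Of the 41 pairs, 36 have a member higher in V, and 25 of these 36 (69.4%) have a neighbour higher in V. Of all called protein-coding genes 65.9% were higher in V, so the share near V-side members was close to that of the table. For other long non-coding genes called toward V it was 182 of 223 (81.6%), overlapping pairs included. Over both sides, leaving out overlapping pairs moved their share in the same direction from 71.1% to 66.3%, and that of the members from 68.3% to 66.7%. The V side alone was not counted without overlapping pairs. Pairs share genes and chromosomal regions and are not independent.

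Members higher in C seldom lay near a called protein-coding gene. Of the 43 called toward C, 26 had an annotated protein-coding gene within 100 kb and 5 a called one. Of the 46 called toward V, 36 had an annotated neighbour and 21 a called one. Other called long non-coding genes showed the same order, with a called neighbour for 133 of 417 on the C side and 132 of 223 on the V side, where annotated neighbours were also more frequent. The difference was not tested.

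**Figure D5:**
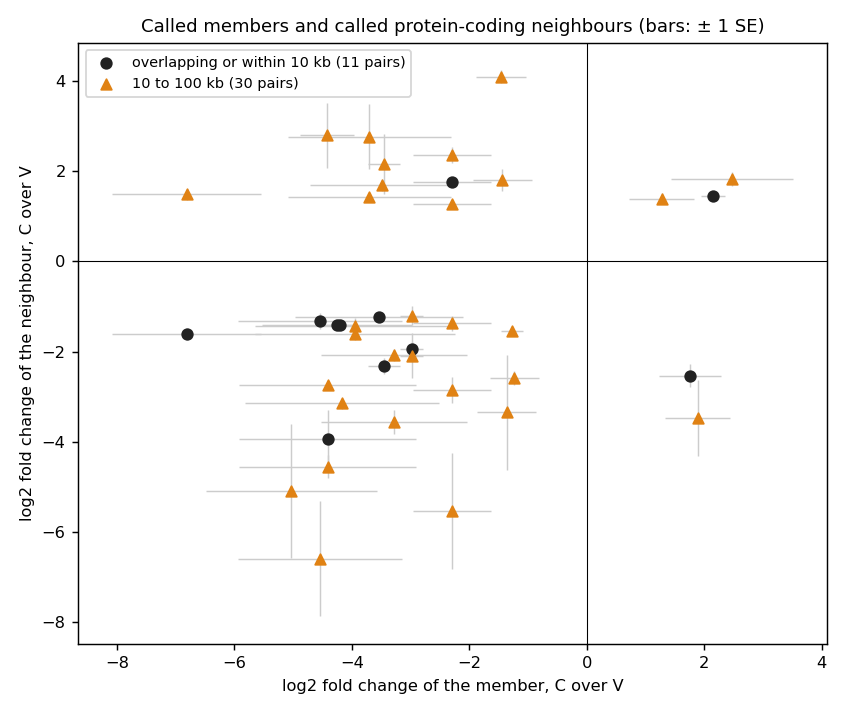
Log2 fold change of the called member (x axis) and of its called protein-coding neighbour (y axis), with bars of ± 1 listed SE; black circles are pairs that overlap or lie within 10 kb and orange triangles are pairs 10 to 100 kb apart. Of 41 pairs, 25 lie at lower left, 3 at upper right and 13 in the remaining areas.

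Within 10 kb there were 11 called pairs, 9 in the same direction, beside the 68.3% over all member pairs and 71.1% for other long non-coding genes within 100 kb; no test separates these shares. LINC02365 had derived levels of 0.165 in C and 18.6 in V (-6.82 ± 1.26 by the authors' deposited table). LINC02427, 46.5 kb from LINC02365, was also higher in V (-3.95 ± 1.70 by the authors' deposited table, DESeq2 adjusted p = 0.047). Its derived levels were only 0.174 in C and 2.68 in V. Beyond 10 kb, it lies 31.9 kb from IRF2, a transcription factor of the interferon response (-1.43 ± 0.17). LINC02762 begins 0.794 kb downstream of PTS, an enzyme of tetrahydrobiopterin synthesis, on the same strand (-4.26 ± 1.28 and -1.40 ± 0.13 in the authors' deposited table). A transcript running past the end of a gene would be counted with a member downstream on the same strand. Such pairs may therefore not be separate transcripts. Of the 15 called pairs with that arrangement, 9 had the same direction, as did 11 of the 15 in which the member lies upstream on the same strand. In the latter a transcript of the member could likewise run into the neighbour, so these counts cannot show which pairs are separate transcripts.

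Further near pairs on the V side involved MIR22HG, LINC00511 and LINC01226. MIR22HG lies 1.06 kb from TLCD2 (-1.95 ± 0.17 in the authors' deposited table) and within 100 kb of RILP, a lysosomal trafficking protein, and SCARF1, a scavenger receptor, all higher in V. LINC00511 lies 5.48 kb downstream of the zinc transporter gene SLC39A11 (-1.41 ± 0.13 in the authors' deposited table). LINC01226 overlaps TINAGL1, a secreted matrix protein gene, on the same strand, and both were on the V side (-4.41 ± 1.51 and -3.93 ± 0.63 in the authors' deposited table). Derived levels were 0.216 in C and 4.60 in V for LINC01226, against 4.92 and 75.0 for TINAGL1. Reads of TINAGL1 could therefore be counted with LINC01226. LINC02068 lies 37.4 kb from TNFSF10, which encodes the death ligand TRAIL (-3.57 ± 0.27 in the authors' deposited table), and 34.6 kb from NCEH1 (-2.08 ± 0.14). LINC00886 lies 40.6 kb from TIPARP (-2.58 ± 0.15), LINC01517 60.6 kb from BAMBI (-3.15 ± 0.11) and LINC02009 55.6 kb from the chemokine receptor gene CCR2 (-5.09 ± 1.49) in the authors' deposited table. The members LINC02068 (-3.28 ± 1.24), LINC01517 (-4.16 ± 1.65) and LINC02009 (-5.03 ± 1.46) were themselves poorly determined. Their derived levels were 6.10, 3.07 and 5.83 normalised counts in V and under 1 in C. CCR2 was also low, at 5.38 in V and 0.159 in C.

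LINC00514 on chromosome 16 had the most called neighbours, 6, and they divided by direction. It has 15 annotated protein-coding genes within 100 kb, of which 7 were listed, and 89.4% of all listed genes were called. The gene also overlaps the protein-coding AC004233.2, which was not listed, on the same strand, and 4.55% of its windows occur in transcripts of other genes. The member itself was higher in V (-2.29 ± 0.67 by the authors' deposited table, derived levels 2.78 in C and 13.6 in V). PKMYT1, the inhibitory kinase of CDK1 (1.76 ± 0.11), PAQR4 (1.26 ± 0.11) and KREMEN2 (2.36 ± 0.18) lay on the C side of the authors' deposited table. TNFRSF12A, the TWEAK receptor gene (-1.37 ± 0.16), IL32 (-2.85 ± 0.29) and MMP25 (-5.54 ± 1.28) lay on its V side.

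Opposite pairs included 2 C-side members. LINC02728, higher in C (1.76 ± 0.53), lies 5.63 kb upstream of GAB2, a signalling adaptor gene higher in V (-2.54 ± 0.25), on the same strand in the authors' deposited table. LINC01876, higher in C (1.89 ± 0.55), lies 69.5 kb from NR4A2, an immediate early nuclear receptor gene higher in V (-3.48 ± 0.84), by the authors' deposited table. MIR23AHG and NANOS3 (2.15 ± 0.67 in the authors' deposited table) were opposite, while MIR23AHG and ZSWIM4 (-2.31 ± 0.18), which overlap on opposite strands, were both higher in V. Without knowing whether counting used strand, reads from MIR23AHG and ZSWIM4 cannot be told apart where they overlap. LINC00869 was higher in V beside PPIAL4C (4.09 ± 0.15 in the authors' deposited table), which belongs to a family of near-identical copies.

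On the C side, LINC02197 starts 9.27 kb from BDP1, a subunit of the RNA polymerase III factor TFIIIB, in divergent orientation, and both were higher in C (2.15 ± 0.21 and 1.44 ± 0.07 in the authors' deposited table). LINC01770 with MXRA8 at 68.8 kb and LINC02780 with DFFB, a DNase gene, at 90.7 kb were the other C-side pairs. LINC02326 and LINC02327 on chromosome 14 overlap each other and were both higher in C (3.87 ± 0.90 and 4.35 ± 0.72 in the authors' deposited table), each with a derived V level under 1.

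Several members with a called protein-coding neighbour within 100 kb were listed but not called. LINC01135 lies 0.801 kb from JUN in divergent orientation, and was listed at -2.34 ± 1.02 (DESeq2 adjusted p = 0.050) beside JUN at -1.64 ± 0.10 in the authors' deposited table. LINC02033 lies beside TRANK1 (-6.01 ± 0.22), LINC00672 beside LASP1 (-2.01 ± 0.09) and LINC02489 beside CREB3L1 (-6.22 ± 1.23) in the authors' deposited table, and all 3 members had the sign of their neighbour. LINC02033 and LINC00672 lie downstream of their neighbours on the same strand, at 4.32 and 3.40 kb, and may not be separate transcripts. LINC00663 (-1.36 ± 0.67) lies 9.42 kb downstream of ZNF506 (1.42 ± 0.23) on the same strand and had the opposite sign in the authors' deposited table. LINC02028, 65.2 kb from HES1, and LINC01814, 85.9 kb from ID2, also had the opposite sign. All these uncalled members had derived levels of at most 13.5 normalised counts on either side.

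Promoter sequences, 250 bases before to 50 after the start in RefSeq (GRCh38.p14), were matched by symbol for 75 members, 39 listed as higher in C and 36 as higher in V. The letters searched on both strands were the interferon response element core, which is GAAA repeated after a gap of any 2 bases, CACGTG, the E-box, and TGANTCA, the AP-1 motif; these motifs do not contain one another. The interferon element core was found in 4 of 75 (5.33%) against 3.64% of all 27326 promoters, with 2 members on each side. CACGTG was found in 3 (4%) against 7.44%. TGANTCA was found in 6 (8%) against 7.77% of all promoters, and all 6 of these members were listed as higher in V, 4 of them called. The stretches around these 6 matches are shown because they fell on 1 side only, a choice made after their values were seen, with the motif in capitals, read 5′ to 3′ on the gene's strand.
LINC02009, chr3:46423821-46423857, minus strand: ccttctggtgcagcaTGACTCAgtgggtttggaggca
LINC00940, chr12:1936687-1936723, minus strand: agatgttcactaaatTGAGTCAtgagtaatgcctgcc
LINC01094, chr4:78645928-78645964, plus strand: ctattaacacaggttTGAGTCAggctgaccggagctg
LINC02762, chr11:112270770-112270798, plus strand: ctgagcaacggcaggTGAGTCAgggtcgc
LINC02033, chr3:36822456-36822492, minus strand: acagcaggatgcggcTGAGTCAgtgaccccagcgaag
LINC01001, chr11:131915-131951, minus strand: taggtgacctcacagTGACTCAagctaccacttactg
The share with TGANTCA among members was close to that of all promoters, and a match is a description of letters, not a site of binding. The 6 members were low, none above the derived 14.0 normalised counts of LINC02762 in V. Of the LINC01001 windows, 86.5% also occur in transcripts of other genes, so its listed direction may not be its own. Its stretch lies inside the GENCODE body of the gene, 127204 to 139612.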

How the data were processed

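The only file used was the authors' deposited table of their DESeq2 comparison of conditions C and V. Per the file headers, the authors averaged normalised counts over all samples (a signal value) and estimated the log2 fold change by maximum likelihood. Its standard error and the Wald statistic, here treated as score values, and the p-value with its Benjamini-Hochberg adjustment were likewise deposited by the authors. The submitters' processing notes list FastQC and Cufflinks 2.2.1, with no role. The sources used here do not state the aligner, counter, strand setting or build (not given in the sources used here). For library preparation the labels name kits for mRNA and for stranded total RNA (1 µg RNA, 50 bp single reads).

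No test across libraries was possible, and none was run over genes. The labels do not say that libraries are separate cultures, so the listed p-values may measure technical spread. Of 6018 identifiers, 5989 matched the gene name table and 5935 matched GENCODE release 29; LINC03026 is absent from the latter. For 4 genes, no member among them, an adjusted p of 0 beside a p above 0 was read as not given. Levels solve for the pair of means with the listed average and ratio. Shared windows are distinct 50-base stretches of a member's GENCODE transcripts that occur, on either strand, in transcripts of another gene. Derived levels and neighbour finding were tested on simulated data. Python 3.11.15, pandas and numpy were used.

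The members and lists were chosen with earlier results of these data known. Named genes were the called members with the 10 largest fold changes on each side (higher level at least 50), the 8 highest means on each side, all MIR hosts, the 15 smallest p among members with a called neighbour, and a fixed set of 12, of which 4 were listed; other members were named after their neighbours, shared windows, levels or motifs were seen. Alternatives changed the call limits, the member rule, overlap and the neighbour distance. Results that involve an item withheld for evaluation are not reported here.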

Additional observations from a re-analysis of the deposited data

How the results depend on the processing

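Members called toward C and toward V numbered 43 and 46. At an adjusted p under 0.01 there were 28 and 29, at a mean of at least 10 there were 21 and 19, at a mean of at least 100 there were 3 and 4, with the 95% interval beyond a log2 fold change of 1 there were 18 and 24, and without members that overlap another gene there were 17 and 22. A log2 fold change of 2 or more in size left 26 toward C and 33 toward V, while a lower derived level of at least 1 left 34 and 26, so the side with more calls depends on the setting. Pairs in the same and in opposite directions, 28 and 13 within 100 kb, numbered 9 and 2 within 10 kb, 17 and 8 within 50 kb, 84 and 45 within 500 kb, 18 and 8 with the nearest called neighbour only, 9 and 3 with a mean of at least 10 for both genes, and 12 and 4 with a log2 fold change of 2 or more in size for both. Fewer genes or a wider window enter under each of these by construction. Of 31 named members, 6 lost their call with the interval beyond 1 and 6 with a lower derived level of at least 1. No paired analysis was possible because the table has no value per library, and for the same reason no library could be left out.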

Other observations

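Among members with a mean of at least 50 normalised counts, 3 of 15 had a listed SE of at least 0.6, MIR663AHG, LINC01029 and LINC00923, against 135 of all 2164 such genes (6.24%). LINC00923 missed the call with a log2 fold change of 2.47 ± 1.26 in the authors' deposited table, at derived levels of 164 in C and 29.7 in V, an SE 5.40 times the median of listed genes at a like mean. The prostate-related RNA PCAT14 was similar, at 2.95 ± 1.45 and derived levels of 124 and 16.2, and was not called. These genes were chosen after their values were seen, and values per library, which would show whether 1 library sets the error, were not analysed here.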
